A study of Mus musculus with 25 samples.

Results

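The 10 genes described here are inflammatory cytokines and feedback genes of the NF-kappa-B pathway, measured in macrophages and fibroblasts sorted from mouse lung and skin after depletion of neutrophils. They were chosen by symbol, with earlier results of these data known. They comprise the cytokines Tnf, Osm, Il6 and Il10, the induced genes Acod1 and Tnfaip2, and the feedback genes Tnfaip3, Nfkbia, Nfkbid and Zfp36. They are 10 of 14405 genes in the deposited tables. All 10 have a row in the lung table and 9 in the skin table; Acod1 was analysed in lung only.

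RNA was measured in 25 libraries from C57BL/6 mice, 12 from lung and 13 from skin. Depleted mice carry Mrp8_CRE and Rosa26_DTR, and control mice are labelled Mrp8_WT; Rosa26_DTR. Mrp8 is another name of S100a8, a gene expressed chiefly in neutrophils, so that Cre switches on a diphtheria toxin receptor in cells in which this promoter has been active. Both genotypes carry the receptor allele and both were given diphtheria toxin, for 7 days at a dose of 10 µg/kg, and control cells therefore saw the toxin too. The lung groups are depleted and control interstitial macrophages, sorted as CD45+, CD68+, F4/80+, CD11c- and CD11b-high cells, and depleted and control PDGFRA+ fibroblasts, with 3 libraries each. In skin there are 4 libraries of depleted and 3 of control macrophages, and 3 each of depleted and control fibroblasts; the skin fibroblast gate also required CD90.1. The ages of the mice, and whether a library is 1 mouse, are not stated in the labels, so the p-values measure the spread between these libraries.

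NF-kappa-B is a family of dimeric transcription factors held in the cytoplasm by IkappaB proteins until a kinase complex, activated downstream of Toll-like receptors or of receptors for Tnf and interleukin 1, marks the inhibitor for destruction. Freed dimers bind kappaB motifs and switch on cytokines together with genes that shut the response off again. In macrophages this loop gives a short burst of cytokine RNA, and many of these transcripts carry AU-rich elements in the 3′ untranslated region that speed their decay.

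The sequences through which the pathway is known to act on such genes were looked up for the members. RefSeq promoters of GRCm38.p6 were searched from 250 bases before to 50 bases after a start, and a gene can have several promoters. The kappaB consensus of 10 letters was found on either strand, in any promoter, for 5 of the 8 members with a promoter entry. Of all 32851 promoters of this length, 8.46% held a match, and for all genes with at least 1 promoter the share was 9.55%. The windows below show each match in capitals with 10 bases on each side, on the strand of the gene, so that the letters can be compared between Tnfaip2 and the feedback genes.
Il6 at chr5:30013060-30013089: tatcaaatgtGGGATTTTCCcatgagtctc
Tnfaip2 at chr12:111442627-111442656: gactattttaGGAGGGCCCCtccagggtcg
Tnfaip3 at chr10:19015516-19015545: gactcacgcgGGGACACCCCggggcgggac
Tnfaip3 at chr10:19015403-19015432: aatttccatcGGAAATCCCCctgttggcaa
Nfkbia at chr12:55492657-55492686: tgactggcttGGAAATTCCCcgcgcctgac
Nfkbid at chr7:30422170-30422199: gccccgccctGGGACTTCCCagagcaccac
Nfkbid at chr7:30422215-30422244: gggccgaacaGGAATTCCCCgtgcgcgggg
The match in Tnfaip2 began 24 bases before the start and that in Nfkbia 29 bases before it. Tnfaip3 and Nfkbid each held 2 matches in a single promoter. In Tnfaip3 they began 125 and 12 bases before the start of that promoter, and in Nfkbid 226 and 181 bases before it. The other promoter entries of Tnfaip3 and Nfkbid held no match. The Nfkbid promoter with matches, at chr7:30422156-30422455, lies downstream of the annotated gene start at 30421732. The Nfkbid promoter at that gene start held none. A match is a stretch of letters and not a measured site, and the absence of these letters from the windows of Tnf, Acod1 and Zfp36 says nothing about other positions.

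The second element searched was the AU-rich nonamer TTATTTATT, on the transcript's strand, in the longest annotated 3′ untranslated region of each gene (GENCODE M21, GRCm38). It occurred in 5 of the 10 members and in 7.66% of 21022 genes with such a region. Windows of 30 bases are shown for 4 of them because Tnf and its regulator Zfp36, which encodes tristetraprolin, a protein that binds AU-rich elements and promotes decay of the RNA, both hold the element. Capitals mark the nonamers, which overlap in Tnf.
Tnf at chr17:35199679-35199708: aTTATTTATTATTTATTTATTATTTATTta
Acod1 at chr14:103055748-103055777: ttctgaggaaTTATTTATTaactctgggaa
Nfkbia at chr12:55489607-55489636: ggaccacgttTTATTTATTgtgcttttgat
Zfp36 at chr7:28376950-28376979: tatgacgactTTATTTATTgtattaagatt
Tnf held 5 nonamers, 4 of them in the window, and the other members shown held 1.

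The deposited values are a normalised signal. Each library's minimum was taken to stand for 0 reads plus a fixed fraction of a read, inferred from the values, and reads were estimated from it. All read counts, and the levels and intervals built on them, rest on this assumption. Lung libraries held 124075 to 385925 estimated reads and skin libraries 6553115 to 27259903. Each read corresponded to 2.997 to 6.81 units in lung and 0.0371 to 0.162 units in skin, and low lung values rest on a few reads. The tables were normalised separately, and lung and skin values are not compared. Differences were tested on both sides with limma on log2 of the value plus a pseudocount, over all genes of a table, and a call needed a p below 0.05 after Benjamini-Hochberg adjustment. Macrophage markers (16 genes) took 1.90 to 3.85% of the reads of lung macrophage libraries and 0.0235 to 0.0768% of those of lung fibroblast libraries. Fibroblast markers took 0.0117 to 0.0248% and 0.782 to 1.35% of the reads in the same libraries.

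Control skin macrophage replicates 1 and 5 were kept apart from every comparison. Fibroblast markers took 11.2 and 13.7% of their reads, against 10.2 to 13.9% in control skin fibroblasts, and macrophage markers 0.00667 and 0.00666%, against 2.35% in control skin macrophage replicate 3. The title of replicate 5 reads SKIN_MFIBRO_WT5, while its cell type label is macrophages. The control arm of skin macrophages is therefore 1 library.

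In lung macrophages, neutrophil genes were the check of the depletion. S100a8, an alarmin subunit, had values of 895, 1052 and 1175 in depleted mice and of 5155, 3741 and 10656 in control mice, and the log2 fold change was -2.51 ± 0.29 (SE, adjusted p = 6.68e-08, limma). S100a9, its partner, changed by -2.50 ± 0.26 (adjusted p = 5.12e-09). Without a variance trend in the fit the adjusted p of both genes was above the threshold, at 0.313 for S100a8 and 0.231 for S100a9.

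Of the 10 members, 3 were lower in macrophages of depleted lungs than in those of control lungs, and none was higher. They were Osm, Acod1 and Tnfaip2, and in each the depleted and control libraries did not overlap. Over all 11867 genes tested, 0.497% were called in either direction, 0.43% lower and 0.0674% higher, and 6.02% had all depleted libraries below all control libraries. The fold changes of 8 members were negative and 2 positive, with a median log2 fold change of -0.78 over the members and 0.04 over all genes. Because the members were chosen with earlier results of these data known, such counts beside all genes describe the members and do not test them as a set. In sorted bulk samples, fewer cells of a type and less RNA per cell cannot be told apart.

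Osm encodes oncostatin M, a cytokine of the interleukin 6 family that acts on stromal cells. Its values were 64.6, 59.0 and 38.3 in depleted lung macrophages, against 174, 142 and 175 in control lung macrophages. These rest on 10, 9 and 6 estimated reads in depleted libraries and 38, 47 and 29 in control libraries. Every depleted library lay below every control library. The means were 53.9 ± 13.9 for depleted and 163.9 ± 18.6 for control mice (SD, n = 3 each), and the log2 fold change was -1.61 ± 0.35 (SE, adjusted p = 0.0114, limma).

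Acod1 encodes the mitochondrial enzyme that makes itaconate, a metabolite that accumulates in activated macrophages. It had 0, 0 and 1 estimated reads in depleted libraries and 19, 14 and 14 in control libraries, with values of 3.08, 3.10 and 8.83 in depleted mice and 88.2, 43.5 and 86.1 in control mice. Only 1 read was found in the depleted group, so the fold is best given from the reads, as a ratio of 0.0312 with an exact 95% Clopper-Pearson interval of 0.000773 to 0.182, which covers counting error only. The log2 fold change of the fit was -3.67 ± 0.75 (SE, adjusted p = 0.0054, limma). In lung fibroblasts of either genotype Acod1 had 0 reads in all 6 libraries.

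Tnfaip2, a gene first described as induced by Tnf whose product takes part in forming membrane nanotubes, was the third. It had values of 76.9, 71.4 and 55.9 in depleted lung macrophages and 181, 214 and 252 in control lung macrophages, from 12, 11 and 9 estimated reads in depleted libraries and 39.5, 71 and 42 in control libraries. The highest depleted library was well below the lowest control library. The means were 68.1 ± 10.9 for depleted and 215.9 ± 35.7 for control mice (SD, n = 3 each), and the log2 fold change was -1.65 ± 0.32 (SE, adjusted p = 0.00271, limma).

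The direction of these 3 genes was the same in every alternative fit, but their calls were not. With control macrophage replicate 2 left out no member was called, with adjusted p of 0.192 for Osm, 0.192 for Acod1 and 0.17 for Tnfaip2. With control macrophage replicate 3 left out none was called either, with adjusted p of 0.314 for Osm, 0.378 for Acod1 and 0.18 for Tnfaip2. Without control macrophage replicate 1, Tnfaip2 alone was called, with adjusted p of 0.0883 for Osm and 0.142 for Acod1. Leaving out depleted macrophage replicate 3 ended the call of Osm (adjusted p = 0.0849). Without a variance trend the adjusted p was 0.418 for Osm, 0.19 for Acod1 and 0.403 for Tnfaip2, and 0 genes of the table were called. After quantile normalisation it was 0.0864 for Osm and for Acod1, and Tnfaip2 was still called. With all 4 lung groups in 1 fit it was 0.44 for Osm and 0.096 for Tnfaip2, and Acod1 was still called. On the estimated reads with voom, Osm had an adjusted p of 0.0563.

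Markers of some other cells moved with the same contrast. The 11 neutrophil markers measured, of 14 listed, took 0.153, 0.176 and 0.189% of the reads of depleted lung macrophage libraries and 1.03, 0.773 and 1.67% of those of control libraries, and 7 of the 11 were called lower. B cell markers took 0.0205 to 0.0626% of the reads in depleted mice and 0.0818 to 0.201% in control mice, with 2 of 7 called lower. Lung epithelial markers took 0.968 to 2.23% in depleted mice and 0.245 to 0.925% in control mice, with 3 of 11 called higher. The 2 mast cell markers measured took 0.00166 to 0.00385% in depleted mice and 0.0112 to 0.0262% in control mice, with 1 called lower. Monocyte markers took 0.735 to 1.30% in depleted mice and 0.614 to 1.16% in control mice, ranges that overlap. Of these 7 markers 1 was called lower, while 5 had a positive and 2 a negative log2 fold change, with a median of 0.56. The 16 macrophage markers took 3.45 to 3.85% in depleted mice and 1.90 to 3.08% in control mice, and none of them was called. Immediate-early genes, which also respond to handling of cells, took 0.559 to 0.776% in depleted mice and 0.808 to 0.889% in control mice. The part of these cells and of handling in the lower Osm, Acod1 and Tnfaip2 was not tested.

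**Figure D1:**
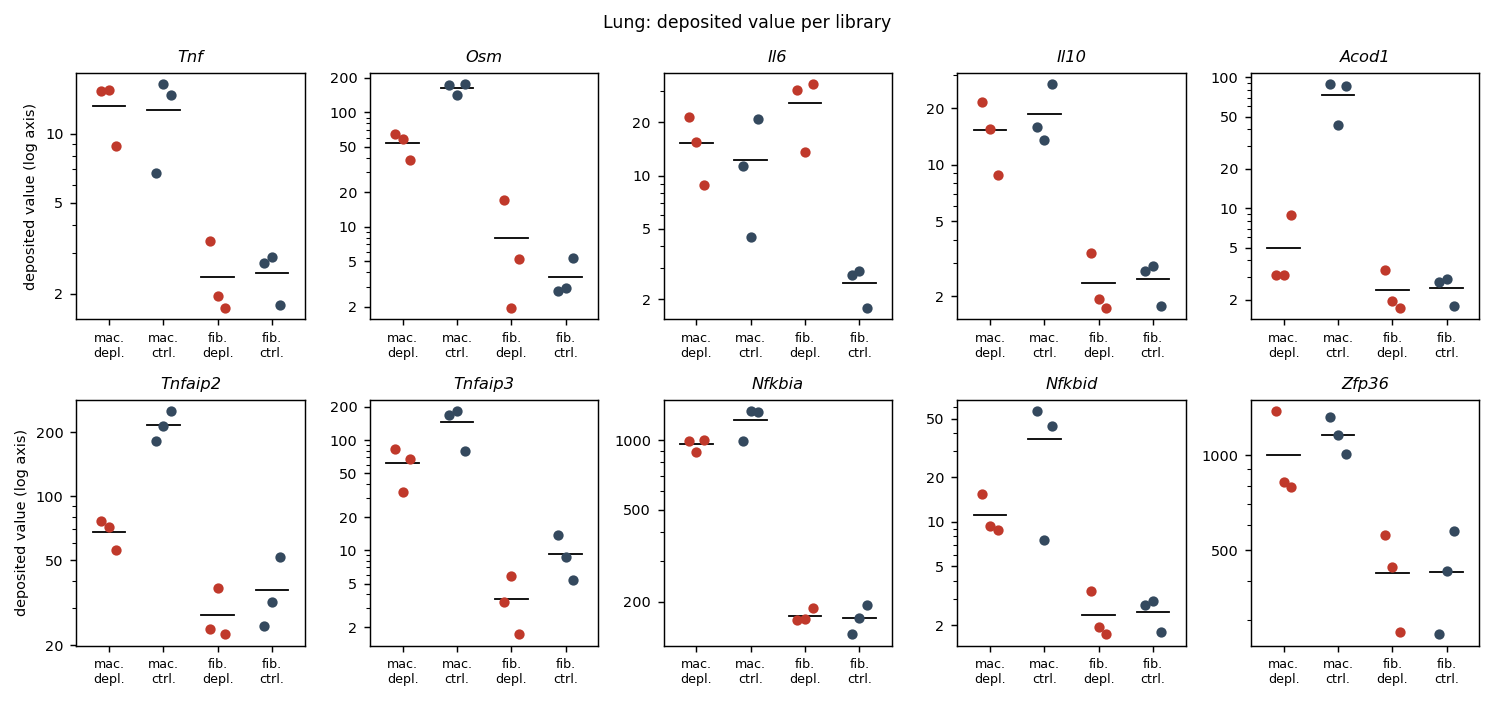
Deposited normalised value (log axis, own scale in each panel) of the 10 members in each lung library, for macrophages (mac.) and fibroblasts (fib.) of depleted (depl., red) and control (ctrl., blue) mice. Bars are the means of 3 libraries, and Osm, Acod1 and Tnfaip2 are the members whose depleted macrophage libraries were called lower.

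For the other cytokines, which rest on few reads, no difference was called in lung macrophages. Tnf, the founding cytokine of the tumour necrosis factor family, had values of 15.4, 15.5 and 8.83 in depleted mice and 6.78, 16.5 and 14.8 in control mice, from 5 reads in all in depleted libraries and 8 in control libraries. Its log2 fold change was 0.10, with a 95% interval of -1.61 to 1.81. Il6, which drives the acute phase response, had 6 reads in each group, and a log2 fold change of 0.44 (95% interval -1.30 to 2.17). Il10, an anti-inflammatory cytokine, had 6 reads in depleted libraries and 11 in control libraries, and a log2 fold change of -0.29 (95% interval -1.89 to 1.30). The groups overlapped in all 3 genes.

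None of the 4 feedback genes was called in lung macrophages. Tnfaip3 encodes A20, an enzyme that edits ubiquitin chains and stops signalling to NF-kappa-B. It had values of 83.1, 34.1 and 67.7 in depleted mice and 169.5, 184.6 and 80.2 in control mice. Depleted replicate 1 overlapped control replicate 3, and the log2 fold change was -1.22 ± 0.39 (SE, adjusted p = 0.227, limma). Nfkbid, an atypical nuclear IkappaB protein, had 2, 1 and 1 reads in depleted libraries and 12, 2 and 7 in control libraries, with a log2 fold change of -1.25 ± 0.81 (adjusted p = 0.747).

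Nfkbia encodes IkappaB-alpha, the inhibitor that is resynthesised first after activation, and its values were 994, 884 and 997 in depleted mice and 992, 1338 and 1320 in control mice. Control replicate 1 lay within the depleted range. The log2 fold change was -0.33, with a 95% interval of -0.82 to 0.15 (adjusted p = 0.786, limma). Zfp36 had values of 1381, 822 and 794 in depleted mice and 1318, 1155 and 1005 in control mice, with a log2 fold change of -0.25 and a 95% interval of -0.76 to 0.25 (adjusted p = 0.844).

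Levels of different genes can be compared per length of their exons as RPKM computed from the estimated reads. In depleted lung macrophages the levels were 493 ± 14.5 for Nfkbia, 237 ± 65.3 for Zfp36, 18.7 ± 5.07 for Osm, 10.9 ± 1.84 for Tnfaip2 and 0.617 ± 1.07 for Acod1 (SD, n = 3). In control lung macrophages they were 676 ± 79.8 for Nfkbia, 301 ± 53.2 for Zfp36, 64.2 ± 9.48 for Osm, 38.5 ± 5.35 for Tnfaip2 and 24.4 ± 9.24 for Acod1 (SD, n = 3). In control mice Tnfaip3 followed with 17.8 ± 7.19, Nfkbid with 13.3 ± 10.1, Il10 with 11.3 ± 4.28, Tnf with 5.65 ± 2.73 and Il6 with 3.71 ± 2.73. From Nfkbia down to Acod1 the control libraries of neighbours in this order did not overlap, and from Acod1 to Il10, and between Tnf and Il6, they did.

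In lung fibroblasts no member was called between depleted and control mice, and 1 gene of 11867 was (0.00843%). At an unadjusted p below 0.05 there were 600 genes, of which 1 was a member. That member was Il6, with 4, 3 and 9 estimated reads in depleted fibroblasts and 0 in each control fibroblast library. Its values were 30.6, 13.6 and 32.8 in depleted mice and 2.73, 2.89 and 1.78, the values of 0 reads, in control mice. Counted against a floor of 3 reads over the control group, the level was 4.9-fold higher in depleted fibroblasts. This leaves out the counting error of the depleted reads, and the exact 95% Clopper-Pearson interval of the ratio began at 3.54. All 3 depleted libraries lay above all 3 control libraries, as in 4.94% of all genes. The log2 fold change of 2.85 ± 0.80 (SE) had an adjusted p of 0.4656 with limma, and 0.0431 with voom on the estimated reads, where Il6 was called; being fitted against 0 reads, it depends on the pseudocount. Markers of other cells differed in the same libraries. The 7 monocyte markers took 0.0433 to 0.0618% of the reads of depleted lung fibroblasts and 0.0243 to 0.0396% of those of control lung fibroblasts, without overlap, and none of them was called. The 11 lung epithelial markers took 0.2 to 0.574% in depleted and 0.0564 to 0.224% in control fibroblasts, 10 of the 11 fold changes were positive with a median of 0.85 (log2), and the single gene called in this contrast was one of them. Fibroblast markers took 0.782 to 1.03% in depleted and 0.934 to 1.35% in control fibroblasts. The part of these cells in the Il6 values was not tested.

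Tnf, Il10, Acod1 and Nfkbid had 0 reads in all 6 lung fibroblast libraries, and Osm 3 reads in depleted and 1 in control fibroblasts. Tnfaip3 had 1 read in depleted and 4 in control fibroblasts, a ratio of 0.229 (exact 95% Clopper-Pearson interval 0.00466 to 2.32). Nfkbia had values of 167, 169 and 188 in depleted fibroblasts and 145, 170 and 195 in control fibroblasts, a log2 fold change of 0.05 with a 95% interval of -0.52 to 0.62. Zfp36 had values of 558, 441 and 275 in depleted fibroblasts and 270.2, 430.0 and 576 in control fibroblasts, with a 95% interval of -0.51 to 0.52. Tnfaip2 had values of 23.8, 36.9 and 22.4 in depleted fibroblasts and 24.6, 31.8 and 52.1 in control fibroblasts. The groups overlapped in all of these genes.

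Whether the effect of depletion differed between the cell types of the lung was tested as an interaction. The effect in macrophages minus that in fibroblasts was -3.61 ± 0.93 for Acod1 (log2, SE, adjusted p = 0.522, limma), -2.22 ± 0.86 for Osm (adjusted p = 0.849), -1.31 ± 0.57 for Tnfaip2 (adjusted p = 0.876) and -2.42 ± 0.98 for Il6 (adjusted p = 0.849). No member was called, and 2 of 11867 genes were (0.0169%), while 4 members and 653 genes had an unadjusted p below 0.05. Acod1 had 0 reads and Osm 4 in all 6 fibroblast libraries together, so for these genes the interaction sets the change in macrophages against a gene hardly detected in fibroblasts and does not compare 2 measured effects. Il6 had 16 reads in depleted and 0 in control fibroblasts, and 6 in each macrophage group, so its estimate depends on the pseudocount. For Tnfaip2, which had reads in both cell types, the effect in macrophages is not shown to differ from that in fibroblasts.

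**Figure D2:**
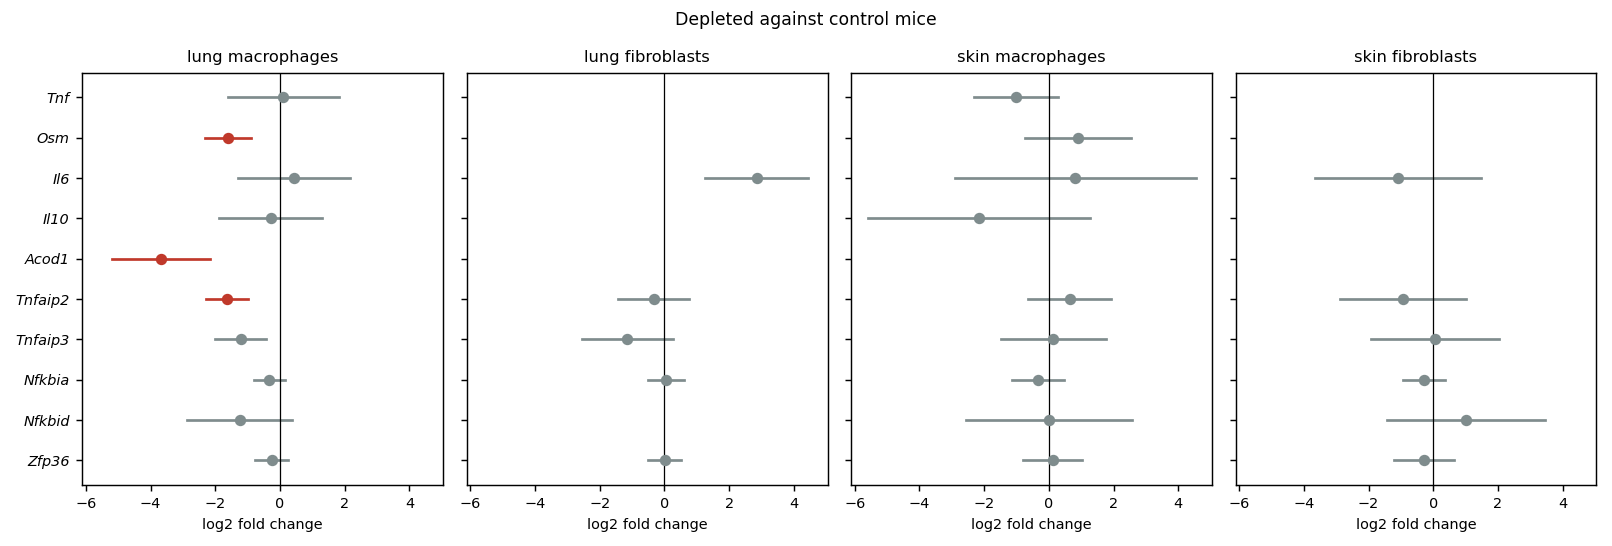
Log2 fold change of depleted against control mice with its 95% interval (limma) for each member in the 4 cell populations; red marks an adjusted p below 0.05. Only Osm, Acod1 and Tnfaip2 in lung macrophages were called; members with no more than 3 reads in both groups, or not tested, have no point, and skin macrophages have 1 control library.

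In skin macrophages, 4 depleted libraries were set against the single control library, which was assumed to vary like the depleted ones. No member was called, 1 of 11428 genes was (0.00875%), and 672 genes, of which 0 were members, had an unadjusted p below 0.05. Tnf had values of 29.04, 62.4, 87.3 and 84.4 in depleted mice and 123 in the control library, with -1.01 ± 0.59 as its log2 fold change (SE, adjusted p = 0.882, limma). Osm had values of 41.2, 22.8, 25.1 and 72.5 in depleted mice and 18.9 in the control library, and its log2 fold change was 0.91 ± 0.75 (adjusted p = 0.892). Every depleted library thus lay below the control library for Tnf and above it for Osm. Of all genes, 24.8% had all depleted libraries below the control library and 21.5% had all of them above it. The control library also lay outside the depleted range for markers of other cells. Mast cell markers took 0.000985 to 0.00949% of the reads of depleted libraries and 0.0349% of those of the control library, keratinocyte markers 0.132 to 0.316% and 0.579%, and fibroblast markers 0.0405 to 0.16% and 0.24%. T and NK cell markers took 0.00425 to 0.0154% in depleted libraries and 0.0218% in the control library. Monocyte markers, at 0.127 to 0.228% in depleted libraries and 0.0818% in the control library, and macrophage markers, at 2.55 to 3.32% and 2.35%, were lower in the control library. With 1 control library, these differences and the genotype cannot be told apart.

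Il10 was at 0 reads in 2 of the 4 depleted skin macrophage libraries, with values of 0.0809, 0.0312, 10.5 and 2.29 in depleted mice and 10.5 in the control library. The depleted library nearest to the control, replicate 3, had 147 reads, and the control library had 174. Il6 had 0, 321, 174 and 179 reads in depleted libraries and 58 in the control library, so that the control lay inside the depleted range. Tnfaip2 had values of 81.8, 44.9, 39.7 and 38.4 in depleted mice and 30.8 in the control library, with a log2 fold change of 0.64 ± 0.58 (adjusted p = 0.892, limma).

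The feedback genes of skin macrophages all had the control library within the range of the depleted ones. Tnfaip3 had values of 33.7, 98.2, 113 and 208 in depleted mice and 85.5 in the control library. Nfkbia had 269.9, 445, 369 and 526 in depleted mice and 495 in the control library. Nfkbid had 4.45, 11.9, 19.1 and 32.8 in depleted mice and 13.8 in the control library, and Zfp36 had 1694, 2288, 1938 and 3791 in depleted mice and 2132 in the control library. Depleted replicate 5 was the highest library for Osm, Tnfaip3, Nfkbia, Nfkbid and Zfp36. Immediate-early genes took 0.547 to 1.32% of the reads of depleted skin macrophage libraries and 0.521% of those of the control library.

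Neutrophil markers were rare in skin macrophages of both genotypes. The 6 measured took 0.00414 to 0.0202% of the reads in depleted mice and 0.011% in the control library, which lay inside the depleted range. S100a8 had values of 7.04 to 14.6 in depleted mice and 36.4 in the control library, and S100a9 had 0.0355 to 1.59 and 8.32. Of the 6 neutrophil markers, 4 had a negative and 2 a positive log2 fold change. With the libraries that were kept apart counted as controls, as labelled, no member was called either, and the signs of the log2 fold changes of Tnf, Il6, Il10, Nfkbia and Nfkbid turned round.

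**Figure D3:**
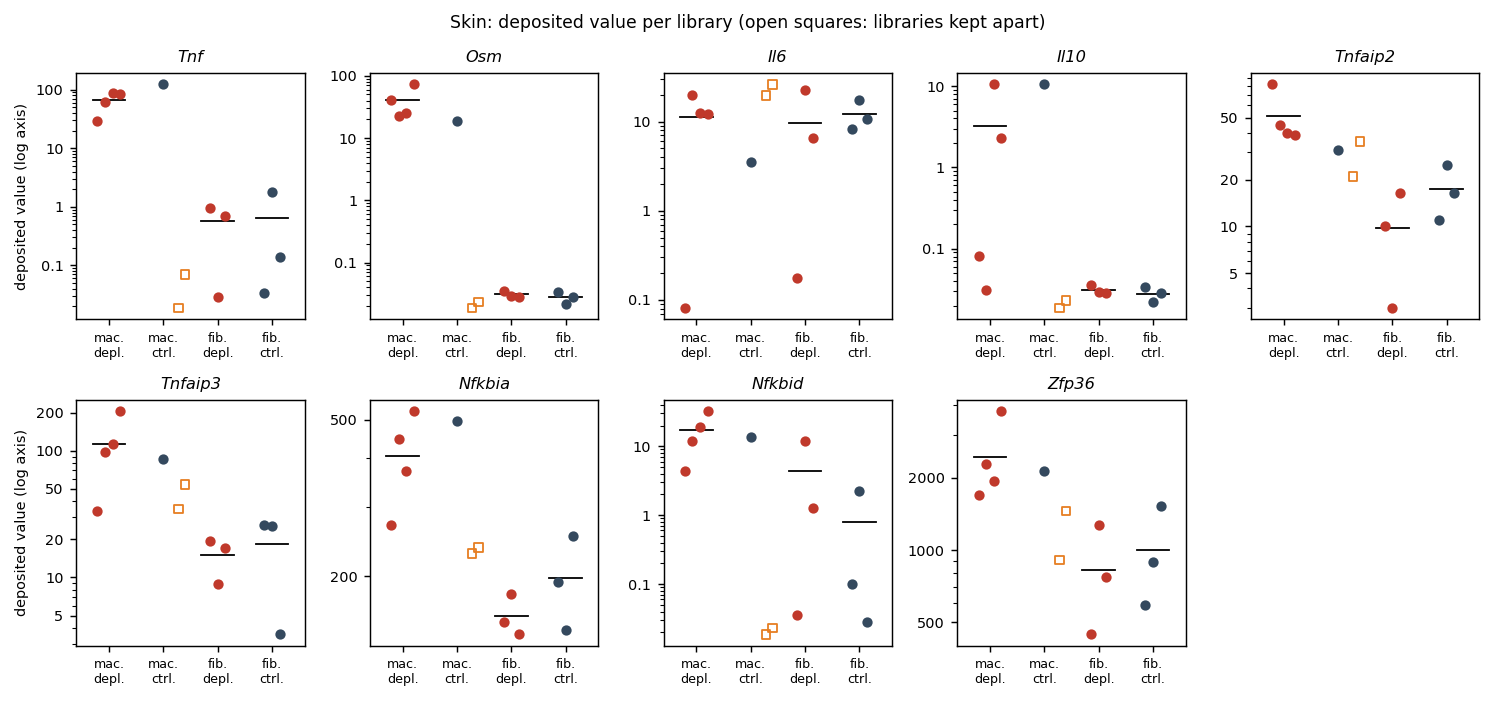
Deposited normalised value (log axis, own scale in each panel) of the 9 members measured in skin, for macrophages (mac.) and fibroblasts (fib.) of depleted (depl., red) and control (ctrl., blue) mice. Bars are means, and open squares are the control macrophage libraries kept apart, which lie with the fibroblasts for Tnf, Osm, Il10, Nfkbia and Nfkbid.

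In skin fibroblasts no member and no gene was called between depleted and control mice with limma, although 283 of 11780 genes, of which 0 were members, had an unadjusted p below 0.05. Voom called 0 genes as well. Il6 had values of 0.177, 22.6 and 6.54 in depleted fibroblasts and 8.30, 17.6 and 10.6 in control fibroblasts. Depleted replicate 2 held only 2 reads of Il6, and without it the log2 fold change was 0.08, against -1.09 ± 1.17 (SE) with all libraries. Tnfaip2 had values of 10.0, 2.98 and 16.4 in depleted fibroblasts and 10.97, 24.7 and 16.4 in control fibroblasts. Tnfaip3 had values of 19.4, 8.84 and 17.1 in depleted fibroblasts and 25.9, 25.7 and 3.54 in control fibroblasts.

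Nfkbia, at 153, 179.9 and 142 in depleted and 193, 146 and 253 in control skin fibroblasts, had a log2 fold change of -0.29 with a 95% interval of -0.93 to 0.35. Zfp36, at 446, 1269 and 770.1 in depleted and 592, 893 and 1527 in control skin fibroblasts, had one of -0.30 with an interval of -1.22 to 0.63. Nfkbid ranged from 0 to 206 reads in depleted libraries and from 0 to 50 in control libraries. Osm and Il10 had 0 reads in all 6 skin fibroblast libraries, and Tnf had 25 reads in depleted and 42 in control fibroblasts, and did not pass the filter on low values. Over all skin tests of depletion, the interaction included, no member was called. In the interaction of skin, 0 of 12619 genes were called with limma and with voom, and 531 genes, of which 0 were members, had an unadjusted p below 0.05.

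Most members were higher in macrophages than in fibroblasts. In lung, 9 of 10 were called higher in macrophages than in fibroblasts, against 18.5% of the 11867 genes tested, and Il6 was not called. Among the 9, Acod1 had 47 of its 48 macrophage reads in control mice. In skin, 7 of the 8 members tested were called higher in macrophages, against 14.3% of 12046 genes, and again Il6 was not called. With genes under 10 ppm removed, 5 members were called in lung. Tnf, Il10, Acod1 and Nfkbid were then no longer tested, and Il6 was tested and not called. The comparisons use the same libraries as those of depletion, with genotype as a term.

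For Osm, lung macrophages had mean values of 53.9 ± 13.9 in depleted and 163.9 ± 18.6 in control mice, and lung fibroblasts 8.05 ± 7.94 for depleted and 3.66 ± 1.47 for control mice (SD, n = 3 each). The log2 fold change was 4.06 ± 0.47 (SE, adjusted p = 1.08e-08, limma). In skin, Osm was found in all 5 macrophage libraries, with 254 to 1060 reads, and in none of the 6 fibroblast libraries. Against a floor of 3 reads over the fibroblast group it was 1206-fold higher in macrophages. Folds against this floor, here and below, leave out the counting error of the macrophage reads.

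Tnf was called higher in macrophages of both organs. In lung it had 13 reads in macrophages over both genotypes and 0 in fibroblasts (adjusted p = 0.00059, limma). Against the floor of 3 reads it was 4.74-fold higher. In skin it had a mean value of 65.8 ± 26.9 in depleted (SD, n = 4) and 123 in control macrophages (n = 1), and 0.564 ± 0.480 in depleted and 0.652 ± 0.979 in control fibroblasts (SD, n = 3 each). The log2 fold change in skin was 5.66 ± 0.58 (SE, adjusted p = 3.7e-06, limma). Il10 had 17 reads in lung macrophages and 0 in lung fibroblasts, 6.2-fold higher against that floor. Acod1 had 48 and 0 reads there, 17.5-fold higher against the floor, but 47 of the 48 were in control macrophages and 1 in depleted ones. Macrophage and fibroblast libraries overlapped for Acod1, and its higher level in macrophages rests on control mice. For Il6 no difference between the cell types was called. Its log2 fold change was 0.51 ± 0.53 in lung with a 95% interval of -0.57 to 1.59 (adjusted p = 0.488, limma) and -0.16 ± 0.96 in skin with an interval of -2.22 to 1.91 (adjusted p = 0.924).

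The feedback genes were higher in macrophages of both organs. Log2 fold changes in lung were 3.78 ± 0.41 for Tnfaip3, 2.64 ± 0.17 for Nfkbia and 1.37 ± 0.20 for Zfp36 (SE). Nfkbid, with 25 reads in macrophages and 0 in fibroblasts, was 9.11-fold higher against the floor of 3 reads. The adjusted p of the 4 genes was 0.000237 or less (limma). In skin they were 2.60 ± 0.57 for Tnfaip3, 1.32 ± 0.22 for Nfkbia, 2.55 ± 0.78 for Nfkbid and 1.48 ± 0.32 for Zfp36, with adjusted p of 0.0231 or less. The call of Nfkbid in skin was lost with all libraries as labelled (log2 fold change 1.52, adjusted p = 0.229), and when control macrophage replicate 3 (adjusted p = 0.117), depleted macrophage replicate 5 (0.0538), or depleted fibroblast replicate 2 (0.0821) or 5 (0.0598) was left out, and that of Zfp36 in skin after quantile normalisation (0.0509). Tnfaip2 was 1.94 ± 0.31 higher in lung macrophages (adjusted p = 4.24e-06) and 1.96 ± 0.51 higher in skin macrophages on the log2 scale (adjusted p = 0.00917).

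**Figure D4:**
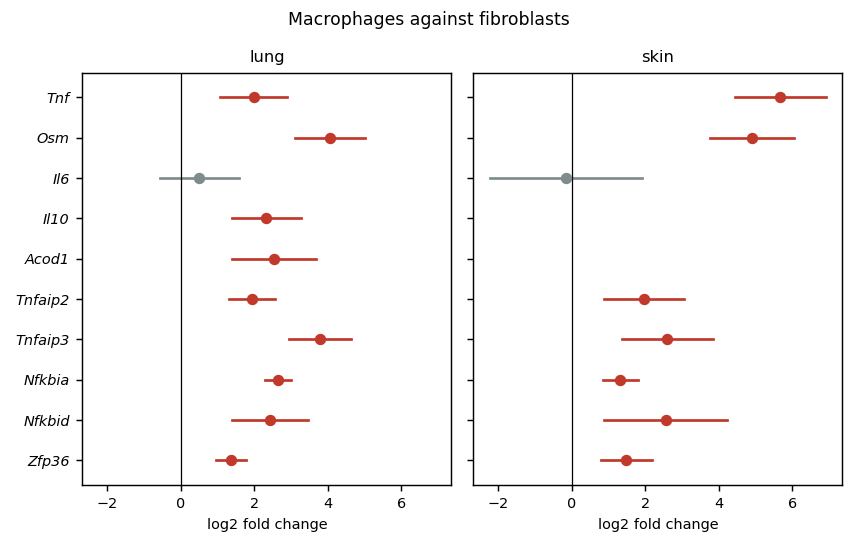
Log2 fold change of macrophages against fibroblasts with its 95% interval (limma, genotype as a term) for each member in lung and in skin; red marks an adjusted p below 0.05. All members shown were higher in macrophages except Il6, whose interval spans 0 in both organs; Acod1 and Il10 have no point in skin because they were not tested there, and the points of Tnf, Il10, Acod1 and Nfkbid in lung and of Osm in skin are fits against 0 reads that depend on the pseudocount.

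Of the receptors for these cytokines, Osmr and Il6st were lower and Il10ra and Tnfrsf1b higher in macrophages of both organs. Osmr, which encodes a receptor subunit for oncostatin M, had 0 reads in lung macrophages and 103 in lung fibroblasts. Its mean values were 2.64 ± 0.64 in macrophages and 76.7 ± 15.6 in fibroblasts (SD, n = 6 each, adjusted p = 1.92e-10, limma). In skin its log2 fold change was -4.71 ± 0.65 (SE, adjusted p = 6.79e-05). The ligand Osm was thus higher in macrophages while its receptor was higher in fibroblasts of the same organ. Il6st, which encodes the shared signalling chain gp130, was lower in macrophages as well, with log2 fold changes of -1.97 in lung and -2.52 ± 0.26 in skin. Il10ra, the ligand-binding receptor for Il10, had 80 reads in lung macrophages and 0 in lung fibroblasts, 29.2-fold higher against the floor of 3 reads. It was called higher in skin macrophages as well. Tnfrsf1b, which encodes Tnf receptor 2, was higher in macrophages by 2.56 ± 0.41 in lung and 5.20 ± 0.60 in skin (log2, SE), and with all skin libraries as labelled its adjusted p was 0.0696. Of 15 genes of cytokine receptors and their signalling in lung, 4 were called higher and 5 lower in macrophages, and in skin 4 were higher and 3 lower. Over all genes, 18.5% were called higher and 18% lower in lung, and 14.3% higher and 16.4% lower in skin, and nothing is read from the counts of this list.

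Sensors that feed the pathway were mostly called higher in macrophages. Of 11 Toll-like receptors and partners in lung, 8 were called higher in macrophages, and of 13 in skin, 9 were higher and 1 lower. Cd14, the co-receptor for bacterial lipopolysaccharide, was higher by 6.03 ± 0.30 in lung and 6.83 ± 0.65 in skin (log2). Tlr13, a sensor of bacterial ribosomal RNA in mice, was higher by 6.30 ± 0.50 in skin (log2). In lung, where fibroblasts had 0 reads of Tlr13, it was 39.0-fold higher against the floor of 3 reads. Among 16 other inhibitors of NF-kappa-B, 6 were higher and 1 lower in lung macrophages and 4 were higher in skin macrophages, against 18.5% of all genes higher in lung and 14.3% in skin. Tnip3, a partner of A20, was higher by 4.51 ± 0.42 in lung and 7.18 ± 0.47 in skin, and Nfkbiz by 2.49 ± 0.32 in lung and 3.13 ± 0.79 in skin, where its adjusted p was 0.0506 with all libraries as labelled. Of the 5 NF-kappa-B subunits, 3 were higher in lung macrophages (Rel, Nfkb1 and Nfkb2) and 1 in skin macrophages (Rel). The skin counts of inhibitors and subunits lie near the share over all genes.

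Between depleted and control mice there was a single called gene over the pathway lists, Nfkbiz in lung macrophages. Of all 11867 genes tested there, 0.497% were called, and nothing is read from the count over the lists. Nfkbiz encodes an atypical nuclear IkappaB protein required for part of the cytokine programme of macrophages. Its mean value was 71.7 ± 11.8 for depleted libraries and 219.5 ± 78.2 for control libraries (SD, n = 3 each). Its log2 fold change was -1.55 ± 0.33 (SE, adjusted p = 0.00768, limma), and the call was lost without control macrophage replicate 1, 2 or 3 (adjusted p of 0.185, 0.255 and 0.0695), after quantile normalisation (0.131), without a variance trend (0.514) and with all lung groups in 1 fit (0.204). The lists hold 5 NF-kappa-B subunits, 16 other inhibitors, 19 kinases and adaptors, 15 receptor genes, 11 sensors, 15 RNA decay genes, 17 itaconate and citric acid cycle genes and 20 immediate-early genes with a value in lung. Their median log2 fold changes were -0.12, -0.28, -0.45, -0.18, -0.13, -0.44, 0.18 and -0.34 in that order, against 0.04 over all genes.

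The adaptor Myd88, which carries signals from most Toll-like receptors, had a mean value of 46.1 ± 28.6 in depleted and 100.1 ± 13.2 in control lung macrophages (SD, n = 3 each). On the log2 scale it differed by -1.35 ± 0.45 (SE, adjusted p = 0.283, limma). Stat3, which carries signals of the Il6 and Il10 receptors, had 105.9 ± 40.8 in depleted and 199 ± 17.6 in control mice (log2 difference -0.99 ± 0.32, adjusted p = 0.272). Tlr7, a sensor of single-stranded RNA, had 53.0 ± 35.3 in depleted and 123 ± 34.5 in control mice (log2 difference -1.39 ± 0.42, adjusted p = 0.184). None of the 3 was called. The pathway lists had no called gene in lung fibroblasts, skin macrophages or skin fibroblasts.

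The genes whose levels followed the members most closely were found over the 6 lung macrophage libraries, among 2832 genes with a mean of at least 10 reads, as a description. For Osm they were Ripor2 (Pearson r = 0.998), Ptgs2 (0.993) and Stk17b (0.99), and for Tnfaip2 they were 2310001H17Rik (0.996), G0s2 (0.987) and Prr13 (0.987). For Tnfaip3 they were Rpl9-ps6 (0.978), Rbm39 (0.97) and Marcksl1 (0.969), for Nfkbia Nsd3 (0.978), Lrg1 (0.971) and Cfdp1 (0.96), and for Zfp36 Chsy1 (0.955), Celf2 (0.945) and Foxp1 (0.944). All genes share the depth of these libraries and their division into 2 genotypes. Tnf, Il6, Il10, Acod1 and Nfkbid had fewer than 10 reads on average and were not compared.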

How the data were processed

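RNA of sorted mouse lung and skin macrophages and fibroblasts was amplified (Ovation Single Cell kit) and sequenced single-end, per the labels' protocols. CASAVA 1.8, cutadapt 1.7.1, RSEM 1.7.1, limma 3.46 and the mm10 build are named, per the submitters' processing notes. The deposited values are a normalised signal for each gene; the normalisation method is not given in the sources used here. Each library's lowest value was taken to stand for 0 reads, and reads were estimated from it. Within 0.01 reads of a whole number were 70.0 to 82.2% of the values of a lung library and 27.4 to 58.0% of those of a skin library, so no count model was the main test.

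limma 3.58.1 in R 4.3.3, with a variance trend, tested log2 of the value plus 1.04 (lung) or 1.00 (skin) units, 1 ppm of the mean library. Genes needed at least 1 ppm in a number of libraries equal to the size of the smaller group, and never fewer than 2. In lung this filter removed no gene, because the value of 0 reads lay above 1 ppm, and all 11867 genes were tested. Genes with 0 reads in both groups, such as Tnf in lung fibroblasts, thus count in the lung shares and in the adjustment. In skin 11428 to 12619 of 12661 genes were tested. P-values were adjusted by Benjamini-Hochberg over all genes of the table. Comparisons of cell types had genotype as a term. The scripts were tested on simulated data. Named genes beyond the members are every pathway gene called between genotypes, up to 3 per list by lowest p in lung macrophages, and up to 4 per list by fold between cell types; Il6st in lung was added after its values were seen. The members and lists were chosen with earlier results of these data known. Replicate numbers did not pair samples (correlations of same-numbered deviations -0.0513 to 0.143). Alternatives were other pseudocounts and filters, quantile normalisation, no trend, voom, all groups in 1 fit, a replicate block, libraries as labelled, and leaving out each library. Intervals from reads cover counting error only, and the low lung depth limits genes of a few reads. A further sequence window is not reported here.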

Additional observations from a re-analysis of the deposited data

Results flagged for a closer look

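Tnfaip2 in depleted skin macrophages had 1 library far from the others. Replicate 1 had a value of 81.78, against 38.4 to 44.9 in the other 3 depleted libraries, and the gap to the next library was 0.851 of the range, above Dixon's critical value for 4 samples. All 9 members with a skin value were examined in this group, which is the only one of 4 libraries, and no other member passed. Chance gives about 1 in 20 for each gene, and more over the 9 genes. Replicate 1 was also the shallowest skin library, with 6553115 estimated reads, against 16026444 to 18429691 in the other 3 depleted libraries. Of its genes 22.2% were at 0 reads, against 4.49 to 7.39% in those 3. The part of depth in the Tnfaip2 value was not tested.

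The control skin macrophage libraries that were kept apart carried 3 members above the highest of the 3 control skin fibroblast libraries. Il6 was 19.55 in replicate 1 and 26.15 in replicate 5, against at most 17.6 in control skin fibroblasts. Tnfaip2 was 35.21 in replicate 5, against at most 24.7. Tnfaip3 was 34.63 in replicate 1 and 54.23 in replicate 5, against at most 25.9. These libraries are in no comparison, and the differences were not tested.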

How the results depend on the processing

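The log2 fold changes of Osm, Acod1 and Tnfaip2 in lung macrophages stayed negative under every alternative. Of the 3 members called there, 1 was called after quantile normalisation, 0 without a variance trend and 1 with all groups in 1 fit, and 0 to 3 with 1 library left out. Genes called there numbered 59, and 27, 0 and 18 under those settings, and 11 to 70 with 1 library left out. In lung fibroblasts 1 gene was called, 0 with a filter of 10 ppm, quantile normalisation, no trend or all groups in 1 fit, 4 with voom, 1 of them a member (Il6), and 0 to 7 with 1 library left out. In skin fibroblasts 0 genes were called, and 0 to 16 with 1 library left out. In skin macrophages 1 gene was called, 2 with a pseudocount of 4 ppm or quantile normalisation, 62 without a filter, 0 under the other settings and 2 to 30 with 1 depleted library left out. Between lung cell types 9 members were called, and 5 with the filter of 10 ppm, which left fewer tested. Between skin cell types 7 were called, and 6 to 7 with 1 library left out, while genes called fell to 1603 with libraries as labelled, against 3696. In the lung interaction 2 genes were called, 6 with the larger pseudocount, 1 after quantile normalisation or with voom, 0 without a trend and 1 to 6 with 1 library left out.

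Signs of uncalled log2 fold changes turned as follows. Zfp36 in lung fibroblasts was -0.055 after quantile normalisation and -0.083 with voom. Tnfaip3 in skin fibroblasts was -0.025 with the larger pseudocount. Nfkbid in skin macrophages was 0.048 with the larger pseudocount, 0.25 after quantile normalisation and 0.30 with voom. With libraries as labelled, skin macrophages gave 3.58 for Tnf, -0.77 for Il6, 0.16 for Il10, 0.39 for Nfkbia and 2.57 for Nfkbid. Il6 between skin cell types was 0.29 after quantile normalisation and 0.28 with libraries as labelled. With 1 library left out, lung macrophages gave -0.26 to 0.35 for Tnf, -0.087 to 0.90 for Il6 and -0.57 to 0.029 for Il10. Lung fibroblasts gave -0.062 to 0.15 for Nfkbia and -0.29 to 0.29 for Zfp36. Skin fibroblasts gave -2.08 to 0.079 for Il6, -0.80 to 0.48 for Tnfaip3, -0.67 to 0.087 for Zfp36 and -0.0049 to 1.82 for Nfkbid. Skin macrophages gave -0.40 to 0.48 for Nfkbid, -0.24 to 0.62 for Tnfaip3 and -0.12 to 0.26 for Zfp36, and Il6 between skin cell types -1.01 to 0.43. The cause was not tested.

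With the replicate block, 67 genes were called in lung macrophages, 4 in lung fibroblasts and 84 in skin fibroblasts, and Il6 between skin cell types was 1.31; it changed no call of a member. No paired analysis was possible for skin macrophages, because the single control library leaves nothing to pair; the block was not run for the interactions. The depth of lung libraries limits Tnf, Il6, Il10 and Nfkbid, which rest on a few reads.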
